A study of Mus musculus with 12 samples.

Results

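Mouse hepatocytes given copper with the ionophore elesclomol (Cu/ES) were compared with untreated cells across all genes with a mean of at least 1 FPKM over the 6 libraries concerned. FPKM is fragments scaled by gene length and by the total of the library, so each value is relative to the total of its own library. Of 24824 genes in the table, 10626 met this level and were tested, and the remaining 14198 did not. All cells were AML12, an immortalized mouse line established from hepatocytes of mice carrying a human TGF-alpha transgene and labelled here as wild type, kept for 24 h. The untreated group had standard growth medium. The Cu/ES group had CuCl2 at 300 μM and elesclomol at 40 nM. Each group had 3 libraries of polyadenylated RNA, among 12 libraries in the series. Nothing in the labels or methods says whether the libraries of a group came from separate cultures, so p-values measure only the spread between these libraries, which may be technical.

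Elesclomol is a small molecule that carries copper ions across membranes into cells. Copper is required by cytochrome oxidase and superoxide dismutase, but in excess it binds thiols, displaces iron from iron-sulfur clusters and makes lipoylated enzymes of the citric acid cycle aggregate, a form of cell death called cuproptosis. Cells answer misfolded proteins through heat shock factor 1, oxidants and electrophiles through NRF2, and free zinc or copper through the metal-responsive factor MTF1, which induces metallothioneins. The hepatocyte is the main cell of copper storage and of its excretion into bile.

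The libraries held about 38298848 to 39108510 reads in the untreated group and 30773745 to 32002316 in the Cu/ES group, counted back from the steps between FPKM values, each step being worth 1 read. Replicate 2 differed more from the other libraries of its group (chi-square per gene 24.3 to 28.1) than replicates 1 and 3 from each other (10.4 and 10.8), in both groups, and the counts of changed genes without it are among those given with the alternatives. Markers of mature hepatocytes were largely missing. Albumin (Alb) had 0 reads in the untreated libraries, where 3 reads would give 0.0375 FPKM, and 9 reads in the Cu/ES libraries. Hnf4a, the nuclear receptor that maintains hepatocyte identity, had 0 reads untreated and 3 reads with Cu/ES. Only 4 of 13 listed hepatocyte markers were tested. The keratins Krt8 (344 ± 37.7 FPKM untreated, 183 ± 16.4 with Cu/ES) and Krt18 (285 ± 22.7 FPKM untreated, 81.9 ± 11.9 with Cu/ES) were the abundant ones, while the cholangiocyte marker Spp1 (673 ± 19.3 FPKM untreated, 1189.6 ± 94.9 with Cu/ES) and the mesenchymal filament Vim (2079.9 ± 87.2 FPKM untreated, 330.0 ± 32.6 with Cu/ES) were more abundant than either in untreated cells (mean ± SD, n = 3 libraries, here and below). Only 3 of 6 listed cholangiocyte markers were tested, and their FPKM went in both directions with Cu/ES.

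Cells with Cu/ES had fewer genes at 1 FPKM or more and gave more of their reads to few genes. Genes at that level numbered 10805 to 10893 per untreated library and 8458 to 8576 per Cu/ES library, whereas genes with any read were more numerous with Cu/ES (17929 to 18582, against 16758 to 16952 untreated). The 10 most abundant genes took 4.99% to 5.17% of reads in untreated libraries and 12.1% to 12.9% in Cu/ES libraries, and the 500 most abundant took 36.2% to 36.8% and 58.9% to 59.6%. Untreated libraries were led by the elongation factor Eef1a1 (1.07% of reads) and the mitochondrial COX1 (1.06%). Cu/ES libraries were led by the chaperones Hspa1b (2.21%) and Hspa8 (1.84%), with the autophagy receptor Sqstm1 (1.16%) and polyubiquitin Ubb (0.81%) among the first 6.

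**Figure D1:**
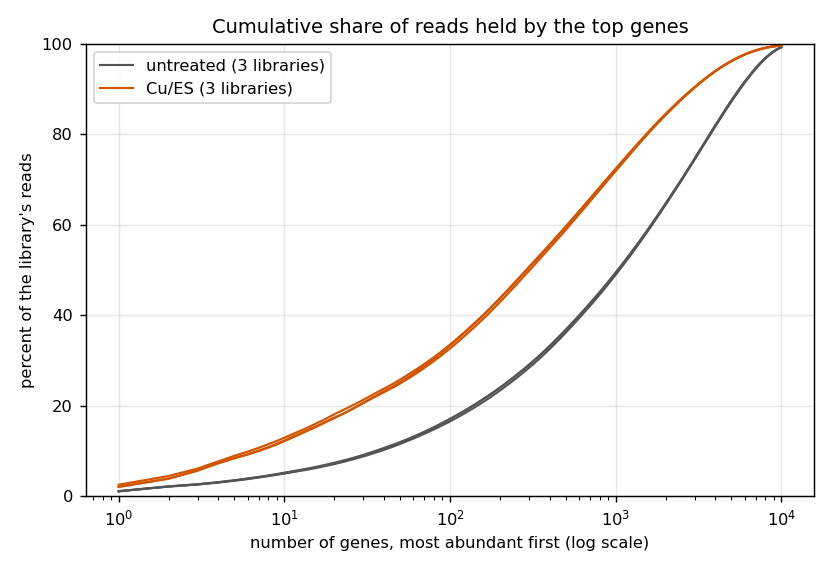
Cumulative percent of each library's reads held by its most abundant genes (genes ranked by abundance on a log axis), with 1 line per library. The 3 Cu/ES lines lie above the 3 untreated lines, reaching 58.9% to 59.6% of reads at 500 genes against 36.2% to 36.8%.

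Because FPKM values are shares, a rise of some genes lowers the values of all others, and the direction of the bulk of genes depends on the scaling. Differences were therefore fitted on log2(FPKM + 1) by limma, as deposited and again after median-ratio scaling, which sets the typical gene equal between libraries. A gene was called at a Benjamini-Hochberg adjusted p under 0.05 with an absolute log2 fold change above 1. As deposited, 1049 genes were called higher (9.87% of those tested) and 5696 lower (53.6%), with a median log2 fold change over all genes of -1.12. After scaling, 2851 were called higher (26.8%) and 2583 lower (24.3%), with a median of 0.00. All 1049 genes called higher as deposited were also called higher after scaling, and all 2583 genes called lower after scaling were also called lower as deposited. This nesting follows from the method and is no separate support. Scaling divides each library by 1 factor, which moved log2 fold changes up (median difference 1.155). The verbs rose and fell are used below only for these 1049 and 2583 genes, whose direction is the same either way. Counts for gene lists are to be read beside their shares of all tested genes, 9.87% and 24.3%. A further 3113 genes were called lower and 1802 higher under 1 scaling alone, and 2079 were called under neither. Converted to TPM, which rescales each library to 1 total, 807 of the 1049 were still called higher and all 2583 lower. The count of falls in TPM also follows from the method, since TPM moved the median further down (-1.59). After quantile normalization, which gives all libraries 1 distribution and so compresses the most abundant genes, 951 were called higher, 8 had a log2 fold change below 0, and 1826 were called lower. Under all 4 scalings 785 genes were called higher and 1826 lower. In such bulk samples fewer cells of a type and less RNA per cell cannot be told apart. Where 2 log2 fold changes are given, the first is as deposited and the second after scaling.

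**Figure D2:**
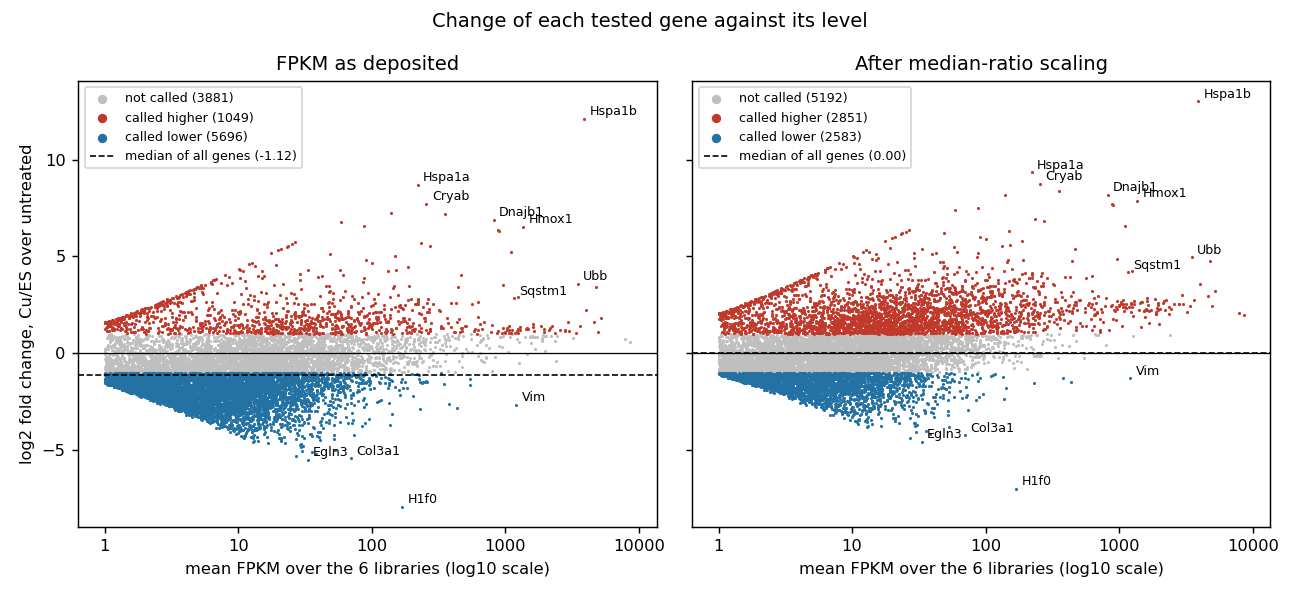
Log2 fold change of each of the 10626 tested genes (1 point per gene, Cu/ES over untreated) against its mean FPKM over the 6 libraries on a log axis, as deposited on the left and after median-ratio scaling on the right. Colours mark the calls, and the dashed line, the median of all genes, moves from -1.12 to 0.00 between the panels while the named genes stay on the same side of 0.

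The groups did not overlap for 9893 genes, 93.1% of those tested, and the median SD within a group was 0.09 (untreated) and 0.10 (Cu/ES) on the log2 scale. Genes that passed the filter through 1 group alone differ by construction, and their direction is fixed by it. This was so for 352 genes with an untreated mean under 1 and 2340 with a Cu/ES mean under 1. It applies to every tested gene named below with a group mean under 1 FPKM. Among the largest changes these are Hspa1b, Hspa1a, Ccn2, Vgf and Tex19.1, and H1f0, Egln3, Pdk1, Cul7, Gatd1 and Psrc1. Under 0.1 FPKM in every untreated library but at least 1 in every Cu/ES library were 166 genes, and 252 genes showed the opposite pattern.

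The largest rises were in chaperones of the heat shock response. Hspa1b, the stress-inducible HSP70, was at 0.492, 1.21 and 0.746 FPKM in the untreated libraries and 7328, 8946 and 7252 FPKM in the Cu/ES libraries (log2 fold change 12.09 ± 0.13 SE and 13.01, adjusted p = 1.9e-16). Its neighbouring copy Hspa1a was at 0 FPKM in each of the 3 untreated libraries and 338, 682 and 308 FPKM in the Cu/ES libraries. With 0 reads untreated, Hspa1a was at least 16012-fold higher with Cu/ES, taking 3 reads per library as the untreated floor of 0.0277 FPKM. Both copies are nearly identical in sequence, so the division of reads between them is uncertain. Dnajb1, the HSP40 partner that loads substrates onto HSP70, was at 12.3, 13.3 and 12.8 FPKM in the untreated libraries and 1505, 1801 and 1559 FPKM in the Cu/ES libraries (log2 fold changes 6.87 and 8.17, adjusted p = 1.44e-15). The lowest Cu/ES library of each of these genes lay far above the highest untreated library, but a lack of overlap was required for the largest changes. Cryab, a small heat shock protein that holds unfolded proteins in solution, was at 0.961, 1.79 and 1.57 FPKM in the untreated libraries and 471, 597 and 468 FPKM in the Cu/ES libraries, a log2 fold change of 7.72 ± 0.21.

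The same table of largest rises, ordered by the smaller of both log2 fold changes, held genes with other roles. Ccn2, a matricellular protein and readout of YAP signalling, was at 0.565, 1.39 and 0.564 FPKM in the untreated libraries and 227, 381 and 226 FPKM in the Cu/ES libraries (7.23 and 8.14). Nppb, the precursor of a natriuretic peptide, rose from 3.84 ± 0.273 to 699.6 ± 75.5 FPKM, and Vgf, a secreted neuropeptide precursor, rose from 0.857 ± 0.337 to 174 ± 19 FPKM. Tex19.1, a germline gene, was at 0, 0 and 0.0147 FPKM in the untreated libraries and 80.4, 190.3 and 84.3 FPKM in the Cu/ES libraries, the untreated value standing for 1 read. Hmox1, heme oxygenase 1, which frees iron from heme, was at 32.5, 21.1 and 32.2 FPKM in the untreated libraries and 2538, 2954 and 2587 FPKM in the Cu/ES libraries, a 94.1-fold ratio of means. Gadd45g, a stress sensor that binds cell cycle and MAP kinase regulators, was at 18.8, 20.7 and 19.8 FPKM in the untreated libraries and 1492, 2067 and 1649.5 FPKM in the Cu/ES libraries. Every gene among these largest rises was highest in replicate 2 of the Cu/ES libraries, by the widest margins for Hspa1a, Ccn2 and Tex19.1.

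The largest falls removed nearly all signal of some abundant transcripts. H1f0, the linker histone of differentiated and resting cells, was at 309, 385 and 319 FPKM in the untreated libraries and 0.523, 0.273 and 0.397 FPKM in the Cu/ES libraries (log2 fold change -7.92 ± 0.10 SE and -6.99, adjusted p = 1.44e-15). Egln3, a prolyl hydroxylase that marks HIF for degradation, was at 74.1, 45.6 and 77.9 FPKM in the untreated libraries and 0.277, 0.60 and 0.444 FPKM in the Cu/ES libraries. Pdk1, the kinase that switches off pyruvate dehydrogenase, was at 55.8, 49.3 and 56.9 FPKM in the untreated libraries and 0.408, 0.245 and 0.534 FPKM in the Cu/ES libraries. For all of these the groups were separated by more than the spread within either, but here too a lack of overlap was required. Col3a1, a fibrillar collagen, fell from 138 ± 26.8 to 2.2 ± 0.391 FPKM, and Aldoc, a glycolytic aldolase, fell from 70.8 ± 6.26 to 1.07 ± 0.151 FPKM. Cul7, a cullin of a ubiquitin ligase, fell from 59 ± 4.13 to 0.783 ± 0.119 FPKM, and Psrc1, a spindle protein, fell from 26 ± 1.28 to 0.16 ± 0.145 FPKM. Nrn1, D17H6S56E-5 and Gatd1 completed the 10, with log2 fold changes of -5.22, -5.01 and -4.58 as deposited.

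**Figure D3:**
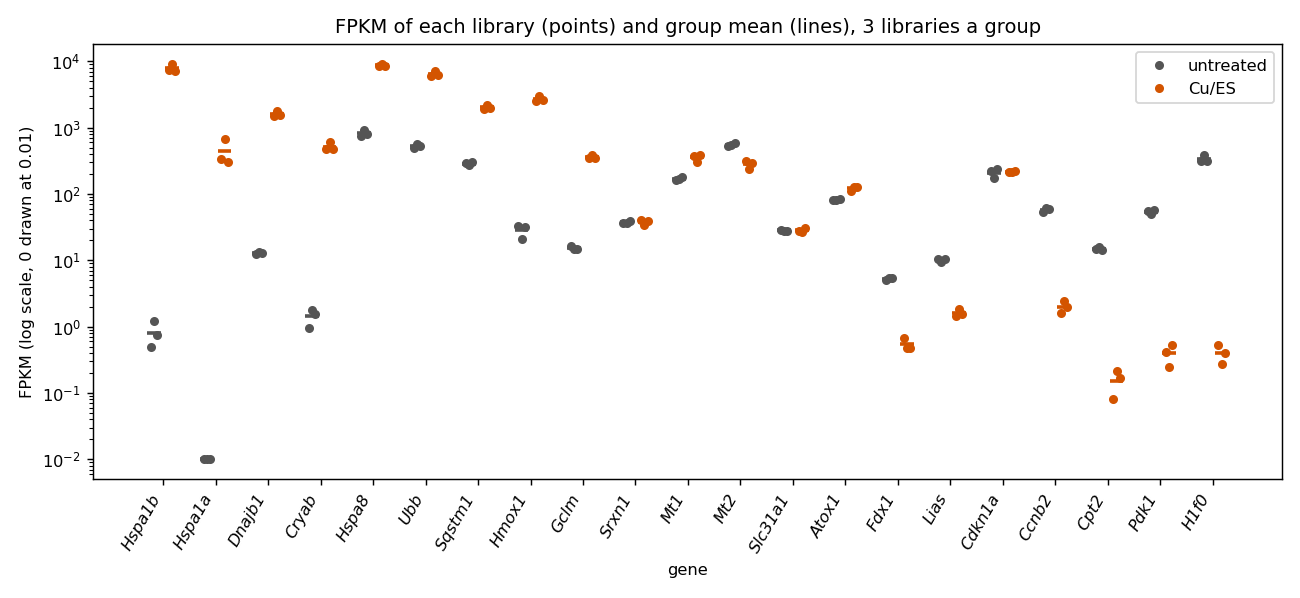
FPKM of each library (points, log axis, with values of 0 drawn at 0.01) and group mean (lines) for 21 genes, with untreated libraries in grey and Cu/ES libraries in orange. Chaperones, Ubb, Sqstm1, Hmox1 and Gclm sit higher with Cu/ES in every library, Srxn1, Slc31a1 and Cdkn1a overlap, and H1f0 drops from over 308 to under 0.53 FPKM.

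Within the chaperone families, rises were concentrated in some members. Of 14 tested HSP70 and HSP110 genes, 6 rose and 1 fell (medians 0.38 and 1.73). Hspa8, the constitutive HSP70 of the cytosol, was already abundant and rose 10.6-fold, from 823 ± 76.1 to 8741 ± 371 FPKM, and Hsph1, an HSP110 that recharges HSP70, rose from 10.5 ± 0.291 to 537 ± 6.91 FPKM. Hspa12b, an endothelial HSP70 relative, fell from 7.36 ± 0.726 to 0.0529 ± 0.0192 FPKM. Of 35 DNAJ co-chaperones, 5 rose and 7 fell (medians -0.80 and 0.37, so the typical member changed sign with the scaling). Dnaja4 (5.95 ± 1.42 to 116 ± 47.7 FPKM) and the endoplasmic reticulum co-chaperone Dnajb9 (23.3 ± 2.47 to 269 ± 19.5 FPKM) rose, and Dnajc10, a reductase of that compartment, fell (113 ± 3.8 to 17.6 ± 2.93 FPKM).

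Small heat shock proteins and BAG co-chaperones split, with 4 of 11 higher and 2 lower under both scalings. Hspb1 rose from 55.4 ± 5.24 to 2171 ± 679.5 FPKM and Hspb8 from 65.3 ± 2.78 to 463 ± 5.92 FPKM, while Hspb6 fell from 9.99 ± 0.384 to 0.715 ± 0.273 FPKM and Bag5 from 8.69 ± 0.241 to 0.462 ± 0.19 FPKM. In the HSP90 group, 5 of 17 rose and 1 fell. The inducible Hsp90aa1 rose from 156 ± 2.78 to 1782 ± 108 FPKM and its ATPase activator Ahsa1 from 33.6 ± 1.61 to 281 ± 10.5 FPKM. The constitutive Hsp90ab1 stood at 1855 ± 29.9 FPKM untreated, 2902 ± 66.4 with Cu/ES, a log2 fold change of 0.64 as deposited, under the size limit, and 2.01 after scaling. Fkbp5, an HSP90 co-chaperone that glucocorticoids induce, was the gene of this group that fell, from 38.3 ± 0.745 to 1.53 ± 0.293 FPKM. Hsf1 itself differed little as deposited (19 ± 0.372 FPKM untreated, 18.1 ± 0.18 with Cu/ES, log2 fold change -0.07, adjusted p = 0.322) and 1.22 after scaling. The cytosolic CCT chaperonin and prefoldin genes had medians of 0.19 and 1.54, and 1 of 14 rose, Cct3 (201 ± 7.53 to 696 ± 15.7 FPKM). As deposited their log2 fold changes ran from -1.40 to 1.79.

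Protein disposal genes were higher as groups. Of 48 proteasome genes, 26 rose and 3 fell (medians 1.05 and 2.41, against -1.12 and 0.00 over all genes), and 17 and 3 did so under all 4 scalings. Adrm1, a ubiquitin receptor of the proteasome, rose from 49 ± 1.77 to 346 ± 14.8 FPKM, and the base subunit Psmd1 rose from 56.4 ± 2.4 to 391 ± 12.9 FPKM. The 3 that fell were the interferon-induced immunoproteasome subunits Psmb8 (29.4 ± 6.35 to 2.97 ± 0.936 FPKM) and Psmb9 (15.3 ± 4.51 to 0.368 ± 0.379 FPKM) and the assembly chaperone Psmg2 (18.2 ± 2.04 to 1.45 ± 0.252 FPKM). Of 30 genes of ubiquitin supply and the p97 segregase, 10 rose and 3 fell. The polyubiquitin gene Ubb was at 492, 572 and 531 FPKM in the untreated libraries and 5895, 7235 and 6157 FPKM in the Cu/ES libraries, and its groups were far apart. Its coding sequence repeats 1 ubiquitin sequence that other genes share, so its own value is uncertain. Zfand2a, an arsenite-inducible protein bound to the proteasome, rose from 12.5 ± 1.02 to 251 ± 0.74 FPKM.

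Autophagy and lysosome genes went both ways. Of 36 autophagy genes 7 rose and 7 fell, and of 34 lysosomal genes 5 rose and 9 fell. Under all 4 scalings these counts were 6 and 4, and 2 and 7. Under both scalings, the share of falls was below the 24.3% of all genes for autophagy and near it for the lysosome. Sqstm1, the p62 receptor that carries ubiquitinated cargo, was at 289, 269.5 and 299.6 FPKM in the untreated libraries and 1924, 2174 and 2002 FPKM in the Cu/ES libraries (log2 fold changes 2.83 and 4.18, adjusted p = 1.39e-12). Gabarapl2, a protein of the autophagosome membrane, rose from 56.3 ± 1.58 to 385 ± 17.1 FPKM, whereas Atg13, part of the initiating kinase complex, fell from 29.7 ± 1.3 to 2.25 ± 0.20 FPKM. Among lysosomal enzymes, the cathepsin Ctsd rose from 278 ± 11.1 to 736 ± 17.4 FPKM (but 0.71 after quantile normalization), and the sphingomyelinase Smpd1 fell from 21.9 ± 1.56 to 0.196 ± 0.135 FPKM and Naglu, which degrades heparan sulfate, from 30.2 ± 0.718 to 0.772 ± 0.275 FPKM.

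The metal-responsive genes moved little beside the heat shock genes. Mt1, a metallothionein that binds zinc and copper, was at 163, 165 and 179 FPKM in the untreated libraries and 373, 303 and 387 FPKM in the Cu/ES libraries, a log2 fold change of 1.05 ± 0.11 and 2.41 (adjusted p = 4.06e-07 as deposited). This call rests on small margins, since the value was 0.69 in TPM, 0.58 after quantile normalization and 0.99 without Cu/ES replicate 3, all under the limit of 1. Its neighbour Mt2 was at 521, 551 and 592 FPKM in the untreated libraries and 317, 234 and 292 FPKM in the Cu/ES libraries, every Cu/ES library being lower than every untreated library as deposited, with a log2 fold change of -0.99 ± 0.11 that turned to 0.37 after scaling. Without Cu/ES replicate 1 or 3 or untreated replicate 1 it was called lower as deposited (-1.02 to -1.08), and after quantile normalization it was -1.57, so its direction follows the scaling. Slc30a1, the zinc exporter of the plasma membrane and a target of MTF1, was low and rose from 1.31 ± 0.127 to 3.69 ± 0.216 FPKM (log2 fold change 0.93 in TPM and 0.98 without replicate 2 of either group). The promoters of these 3 genes are shown because they carry the metal response element searched, with each match in capitals. Sequences are those RefSeq gives for GRCm38.p6, from 250 bases before to 50 after the start, 5′ to 3′ on the strand of the gene. They lie at chr8:94178839-94179138 (plus strand), chr8:94172368-94172667 (plus strand) and chr1:191906531-191906830 (plus strand).
Mt1: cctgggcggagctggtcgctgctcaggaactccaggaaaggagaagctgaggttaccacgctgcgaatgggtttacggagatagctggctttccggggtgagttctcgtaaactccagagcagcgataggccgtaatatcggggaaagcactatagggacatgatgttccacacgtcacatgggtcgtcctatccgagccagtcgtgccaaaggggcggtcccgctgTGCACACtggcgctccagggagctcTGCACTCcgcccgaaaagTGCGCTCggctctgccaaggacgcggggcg
Mt2: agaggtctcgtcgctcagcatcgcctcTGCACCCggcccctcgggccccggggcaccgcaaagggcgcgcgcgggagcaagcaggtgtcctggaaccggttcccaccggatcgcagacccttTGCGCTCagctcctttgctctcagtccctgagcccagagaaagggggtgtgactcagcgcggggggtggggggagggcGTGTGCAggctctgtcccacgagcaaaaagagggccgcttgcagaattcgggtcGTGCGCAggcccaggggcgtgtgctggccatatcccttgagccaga
Slc30a1: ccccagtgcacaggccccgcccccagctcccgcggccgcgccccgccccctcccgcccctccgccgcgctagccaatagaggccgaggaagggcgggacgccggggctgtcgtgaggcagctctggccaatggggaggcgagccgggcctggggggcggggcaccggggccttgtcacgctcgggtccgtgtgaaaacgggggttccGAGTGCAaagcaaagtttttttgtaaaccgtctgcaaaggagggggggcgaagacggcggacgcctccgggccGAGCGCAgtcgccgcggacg

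The letters searched were TGCACNC and TGCGCNC for the metal response element, on either strand, and Mt1 held 3 matches, Mt2 4 and Slc30a1 2. Matches of this short string were common. It was present in the promoters of 28.2% of all genes with a promoter sequence, 40.8% of those tested here, 35% of those that rose and 41.1% of those that fell. Promoters were matched by symbol for 8519 of the 10626 tested genes.

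In the list of metallothioneins and zinc transporters, 3 of 21 rose and 4 fell (medians -0.99 and 0.37), of which 1 and 2 did so under all 4 scalings. Mt3, the metallothionein best known from brain, was at 0 FPKM in each of the 3 untreated libraries and 2.23, 2.21 and 2.05 FPKM in the Cu/ES libraries, a total of 110 reads. It was the rise that held under all 4 scalings, but it passed the filter through the Cu/ES libraries alone, so that it had to differ. Slc39a1, a zinc importer, fell from 96.9 ± 7.03 to 9.08 ± 0.771 FPKM. None of the 16 tested copper-handling genes rose and 6 fell (medians -1.47 and -0.46), 3 of them under all 4 scalings. After median-ratio scaling alone 6 were called higher and 6 lower, beside 26.8% and 24.3% of all genes. The importer Slc31a1 was at 28.8, 27.5 and 28.1 FPKM in the untreated libraries and 28.1, 26.8 and 30.5 FPKM in the Cu/ES libraries, overlapping, with a log2 fold change of 0.01 as deposited (adjusted p = 0.862) and 1.33 after scaling. The exporter Atp7a also overlapped between groups (5.22 ± 0.404 FPKM untreated, 5.92 ± 0.664 with Cu/ES, log2 fold change 0.15, adjusted p = 0.466) and was called higher after scaling (1.29). Atp7b, the exporter of hepatocytes that is mutated in Wilson disease, had 57 reads over the untreated and 39 over the Cu/ES libraries and was not tested. The chaperone Atox1, which hands copper to both exporters, was at 82 ± 2.57 FPKM untreated, 122 ± 8.75 with Cu/ES. It was higher in every Cu/ES library but with a log2 fold change of only 0.56 as deposited, and was called higher after scaling (1.91). Steap2, a metalloreductase, fell from 7.59 ± 0.552 to 0.266 ± 0.0168 FPKM, and Cox11, which inserts copper into cytochrome oxidase, fell from 7.44 ± 0.466 to 0.66 ± 0.227 FPKM.

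Iron genes moved in both directions, with 3 of 17 higher and 5 lower (1 and 3 under all 4 scalings). Besides Hmox1, both ferritin chains rose, Ftl1 from 2283 ± 135 to 6928 ± 1079 FPKM and Fth1 from 763 ± 32.9 to 1704 ± 35.1 FPKM, although after quantile normalization their log2 fold changes were 0.00 and 0.13. Falls were seen in Hmox2, the constitutive heme oxygenase (17.7 ± 1.03 to 1.35 ± 0.123 FPKM), Ireb2, an iron-sensing RNA-binding protein (18 ± 1.26 to 1.92 ± 0.0646 FPKM), and the mitochondrial iron importer Slc25a28 (30.2 ± 3.02 to 4.34 ± 0.837 FPKM). Of 31 genes of iron-sulfur cluster assembly and protein lipoylation, 1 rose and 8 fell (medians -1.41 and -0.36), a share of falls close to the 24.3% of all genes, and 4 falls held under all 4 scalings. Fdx1, the ferredoxin that reduces elesclomol-bound copper and drives lipoylation, was at 5.04, 5.33 and 5.46 FPKM in the untreated libraries and 0.669, 0.481 and 0.472 FPKM in the Cu/ES libraries. Lias, lipoic acid synthetase, was at 10.5, 9.37 and 10.3 FPKM in the untreated libraries and 1.47, 1.86 and 1.53 FPKM in the Cu/ES libraries. Both fell, with log2 fold changes after scaling of -1.19 and -1.02, the latter just past the limit of 1. Lias was under that limit when any of Cu/ES replicates 1 and 3 or untreated replicates 1 and 3 was left out (-0.96 to -0.997), and after quantile normalization both were (-0.67 and -0.74). Nfu1, a carrier of iron-sulfur clusters, fell from 20.2 ± 2.11 to 1.89 ± 0.0942 FPKM, and Lipt2, the transferase that attaches octanoate in lipoate synthesis, went from 411 reads over the untreated libraries to 0 over the Cu/ES libraries. Lipt2 passed the filter through the untreated libraries alone. Dlat, a lipoylated subunit of pyruvate dehydrogenase, was called lower as deposited (-1.12) and in TPM (-1.53) but not after scaling (0.14), and its partner Pdhb was the member that rose (68.5 ± 4.39 to 159 ± 6.71 FPKM, but 0.84 in TPM).

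NRF2 targets rose in part. Of 33 genes 13 rose and 1 fell (medians 0.17 and 1.51), and 9 and 0 did so under all 4 scalings. Gclm, the modifier subunit of the enzyme that limits glutathione synthesis, was at 16.5, 15 and 14.8 FPKM in the untreated libraries and 352, 386 and 348 FPKM in the Cu/ES libraries (log2 fold changes 4.46 and 5.77, adjusted p = 6.9e-15). Thioredoxin reductase Txnrd1 rose from 83.1 ± 3.54 to 488 ± 11.2 FPKM and the glutathione transferase Gsta1 from 0.198 ± 0.179 to 21.6 ± 5.0 FPKM. Gsta1 passed the filter through the Cu/ES libraries alone. In contrast, sulfiredoxin Srxn1 was at 36, 36.9 and 39.3 FPKM in the untreated libraries and 39.9, 33.5 and 39.1 FPKM in the Cu/ES libraries, overlapping, with a log2 fold change of 0.00 (adjusted p = 0.991) as deposited and 1.33 after scaling. Nqo1, a quinone reductase, was at 13.9 ± 2.09 FPKM untreated, 16.6 ± 1.2 with Cu/ES, a log2 fold change of 0.25 and 1.52. G6pdx, the first enzyme of the pentose phosphate pathway, was at 63.6 ± 1.73 FPKM untreated, 14.2 ± 1.18 with Cu/ES and was called lower as deposited, in TPM and after quantile normalization but not after median-ratio scaling. In the wider list of antioxidant enzymes 4 of 27 rose and 1 fell, the last being glutaredoxin Glrx (16 ± 1.86 to 1.73 ± 0.206 FPKM). The promoters of Gclm and Srxn1 are shown because each holds 1 antioxidant response element as searched, in capitals, although the values of these genes differed. Hsph1 is added, chosen after its values were seen, as a chaperone gene with a promoter that holds the heat shock element. For Hsph1 2 promoters were given, and only the 1 with the lower start coordinate is shown. They lie at chr3:122245307-122245606 (plus strand), chr2:152105274-152105573 (plus strand) and chr5:149636266-149636565 (minus strand), in the same RefSeq build.
Gclm: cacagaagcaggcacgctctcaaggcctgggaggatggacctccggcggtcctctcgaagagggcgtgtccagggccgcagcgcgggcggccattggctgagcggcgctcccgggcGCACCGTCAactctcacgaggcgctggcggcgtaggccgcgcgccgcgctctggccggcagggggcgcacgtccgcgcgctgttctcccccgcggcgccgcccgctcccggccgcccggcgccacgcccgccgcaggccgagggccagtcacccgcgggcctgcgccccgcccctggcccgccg
Srxn1: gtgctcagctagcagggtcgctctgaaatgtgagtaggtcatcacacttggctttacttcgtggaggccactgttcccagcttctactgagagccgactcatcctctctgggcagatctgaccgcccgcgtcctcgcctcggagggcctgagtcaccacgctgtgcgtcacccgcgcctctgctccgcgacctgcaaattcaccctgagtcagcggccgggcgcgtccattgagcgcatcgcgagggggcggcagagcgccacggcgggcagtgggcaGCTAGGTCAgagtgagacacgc
Hsph1: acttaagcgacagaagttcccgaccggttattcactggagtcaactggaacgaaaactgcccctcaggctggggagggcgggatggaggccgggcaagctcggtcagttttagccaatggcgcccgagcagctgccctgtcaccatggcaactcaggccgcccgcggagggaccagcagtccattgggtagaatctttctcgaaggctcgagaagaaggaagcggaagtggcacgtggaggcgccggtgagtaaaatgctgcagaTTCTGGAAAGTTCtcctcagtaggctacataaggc

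For the antioxidant response element the letters were TGACNNNGC on either strand, present in the promoters of 14.0% of all genes, 17.3% of those tested, 20.5% of those that rose and 15.2% of those that fell. For the heat shock element the full form was searched, 3 alternating GAA and TTC units with 2 free bases between them, on either strand, and it was present in 0.662%, 0.575%, 1.10% and 0.635%. Among genes that rose, 9 of 818 with a promoter sequence held this full heat shock string. These shares are descriptions of the letters within 300 bases and were not tested.

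**Figure D4:**
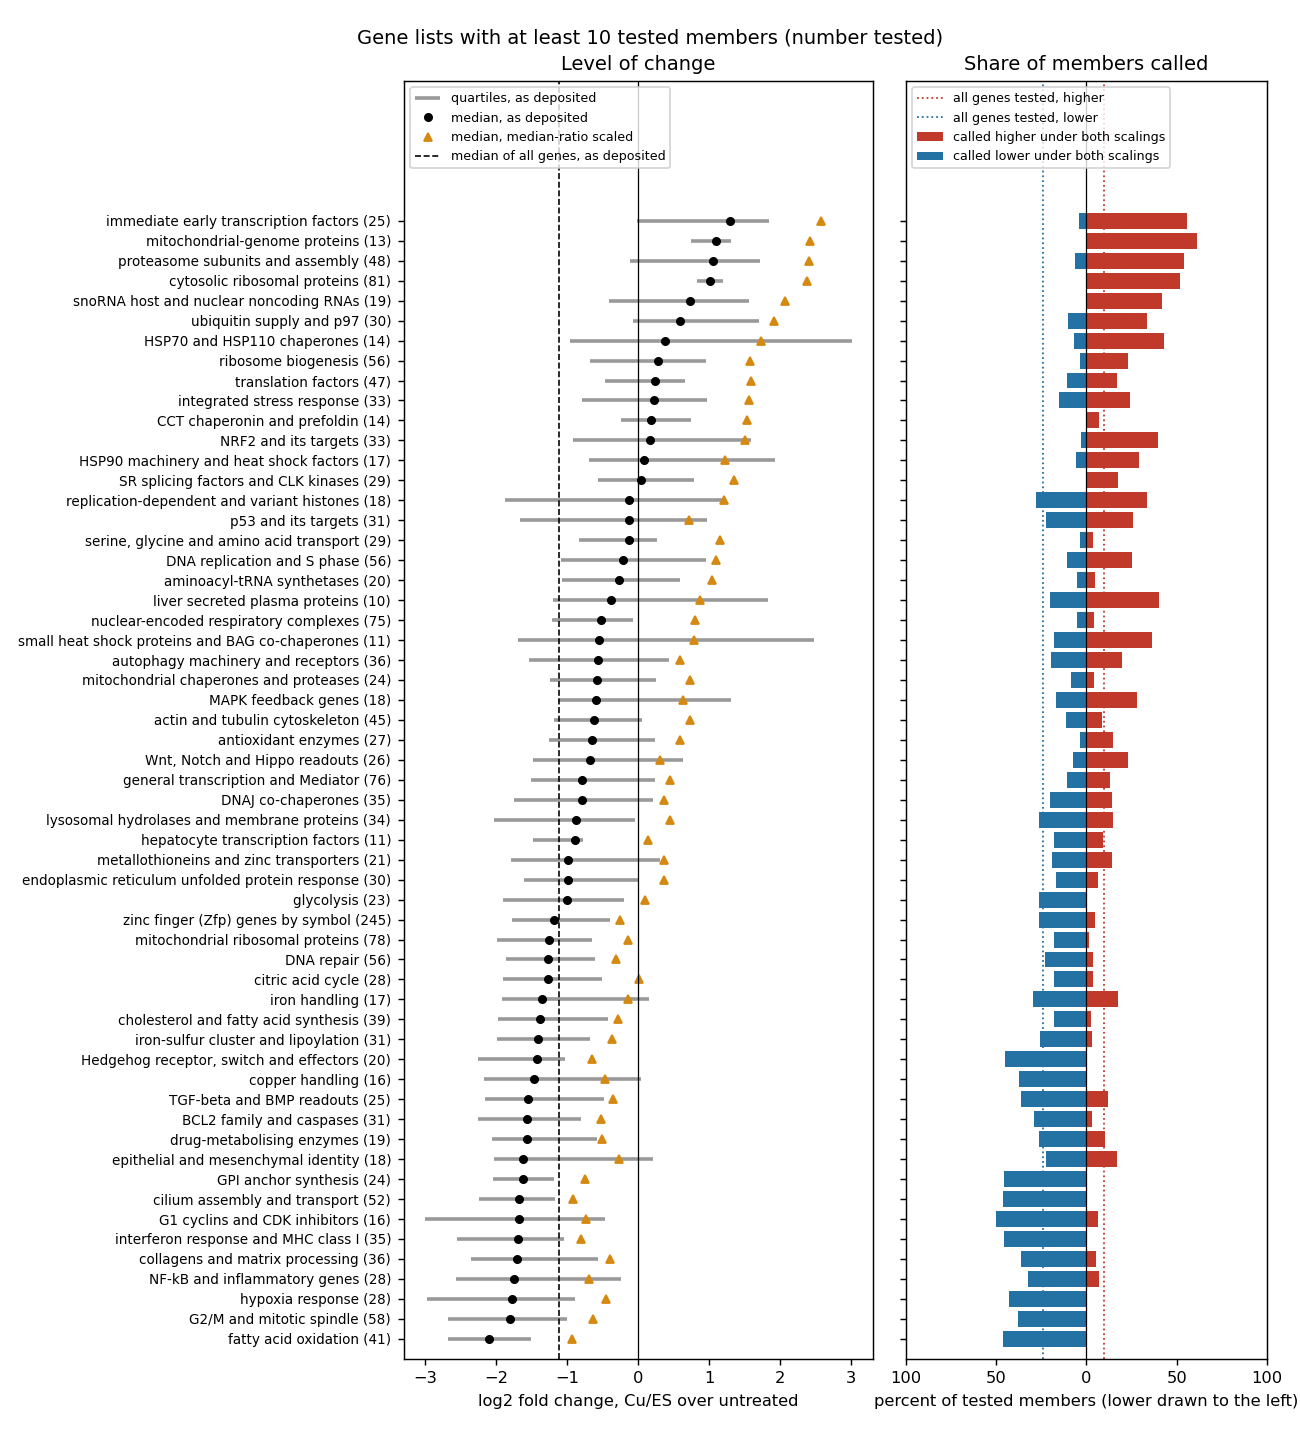
Gene lists with at least 10 tested members, ordered by median. The left panel gives the median and quartiles of the log2 fold change as deposited and the median after scaling, and the right panel the percent of members called under both scalings, with dotted lines for all genes tested (9.87% higher, 24.3% lower). Immediate early, proteasome, mitochondrially encoded and ribosomal protein genes lie at the top, fatty acid oxidation and mitotic genes at the bottom.

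Signalling of the endoplasmic reticulum and of the integrated stress response was uneven. Of 30 genes of the unfolded protein response 2 rose and 5 fell (medians -0.99 and 0.36). The lumenal chaperone Hspa5 rose from 765 ± 58.1 to 1584 ± 158 FPKM (but 0.68 in TPM, -0.01 after quantile normalization and 0.97 and 0.99 without replicate 2 of the Cu/ES and the untreated group), while the oxidase Ero1a fell from 256 ± 80.6 to 17.9 ± 1.32 FPKM and the mannose-trimming protein Edem2 from 49.6 ± 1.81 to 2.92 ± 0.233 FPKM. Of 33 genes of the integrated stress response 8 rose and 5 fell. Atf3, a stress-induced transcription factor, was at 8.88, 6.85 and 8.46 FPKM in the untreated libraries and 438, 492 and 451 FPKM in the Cu/ES libraries, a log2 fold change of 5.67 ± 0.09 and 6.94. Ppp1r15a, which restarts translation by dephosphorylating eIF2α, rose from 53.8 ± 10.3 to 873 ± 29.8 FPKM. Atf4, the central factor of this response, was at 251 ± 5.13 FPKM untreated, 172 ± 6.69 with Cu/ES, lower in every Cu/ES library as deposited (-0.54) and higher after scaling (0.81), and was called under neither. Ddit3, which encodes CHOP, was at 35.1 ± 0.89 FPKM untreated, 53.3 ± 4.02 with Cu/ES, with log2 fold changes of 0.59 and 1.91. Atf5 fell from 51.2 ± 7.65 to 4.38 ± 0.661 FPKM.

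The cytosolic ribosome took a larger share of the deposited values. Of 81 cytosolic ribosomal protein genes 42 rose and 0 fell, with medians of 1.02 and 2.38, but only 8 were called higher in TPM (median 0.65) and 0 after quantile normalization (median 0.08). The summed level of the list went from 69800 to 75300 FPKM per untreated library to 138000 to 152000 with Cu/ES. Their range was narrow, from Rplp2 (1.51, 832 ± 76.3 to 2373 ± 120.5 FPKM) to Rps27l (-1.09 as deposited and 0.20 after scaling). Many of these genes have processed pseudogenes with nearly the same sequence, so single values are uncertain. Of 78 mitochondrial ribosomal protein genes 1 rose and 14 fell (medians -1.26 and -0.14, beside -1.12 and 0.00 over all genes). Both shares were below those of all genes, 9.87% and 24.3%. Mrps6 was the member that rose (21.3 ± 3.71 to 95.2 ± 13.7 FPKM), and Mrpl44 had the lowest log2 fold change (17.6 ± 0.651 to 0.283 ± 0.255 FPKM). Of 56 ribosome biogenesis genes 13 rose and 2 fell, with the nucleolar Nop16 (19.4 ± 0.75 to 92.4 ± 5.73 FPKM) and Nop58 (56.2 ± 2.25 to 219.8 ± 0.50 FPKM) among the rises. Host genes of small nucleolar RNAs and other noncoding RNAs listed with them rose in 8 of 19 cases and fell in none, led by Snhg9 (1.09 ± 0.723 to 29 ± 7.25 FPKM), Snhg15 (23.9 ± 2.66 to 109 ± 14.8 FPKM) and Norad (39.4 ± 1.69 to 176 ± 13.3 FPKM). Of 20 aminoacyl-tRNA synthetases, Rars rose (269 ± 15.4 to 977 ± 63.7 FPKM) and Dars fell (56.3 ± 1.12 to 6.76 ± 0.489 FPKM), and the other 18 were not called the same way under both scalings. Of 47 translation factors 8 rose (2 under all 4 scalings) and 5 fell, including a rise of the termination factor Etf1 (56.8 ± 3.16 to 258 ± 9.98 FPKM) and a fall of the translation repressor Eif4ebp1 (194 ± 17.5 to 33.5 ± 0.598 FPKM).

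Respiratory chain genes were counted by genome. All 13 protein genes of the mitochondrial DNA had a positive log2 fold change under both scalings and 8 rose (medians 1.10 and 2.43), but 3 were called higher in TPM (median 0.745) and 1 under all 4 scalings, with ND2 (1400.1 ± 255 to 6606 ± 1558 FPKM) and ND1 (2324 ± 394 to 8171 ± 571 FPKM) the largest among the abundant ones (0.92 and 0.32 after quantile normalization). ND5 hardly differed as deposited (1031 ± 119 FPKM untreated, 1061 ± 54.6 with Cu/ES, 0.05), and its sign turned in TPM (-0.32) and after quantile normalization (-0.85). Untreated levels in this list ran from 2.5 ± 2.09 FPKM for ATP8 (6.79 ± 4.49 with Cu/ES) to 6850 ± 129 FPKM for COX1. Of those that rose, ATP8, ND3, ATP6 and COX2 were at only 2.5, 2.99, 28.7 and 33.5 FPKM untreated. Their values are therefore uncertain, and the reason for these low levels was not tested. Of 75 nuclear-encoded subunits 3 rose and 4 fell (medians -0.53 and 0.81, so that the typical subunit was lower as deposited and higher after scaling). Cytochrome c, Cycs, rose from 17.2 ± 0.932 to 60.6 ± 2.08 FPKM, and Ndufv3 of complex I (78.5 ± 5.73 to 5.0 ± 0.561 FPKM) and Uqcrc2 of complex III (84.3 ± 0.863 to 9.5 ± 1.08 FPKM) fell. Among mitochondrial chaperones and proteases 1 of 24 rose, the cochaperonin Hspe1 (112 ± 4.98 to 679.5 ± 17.1 FPKM), and 2 fell.

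**Figure D5:**
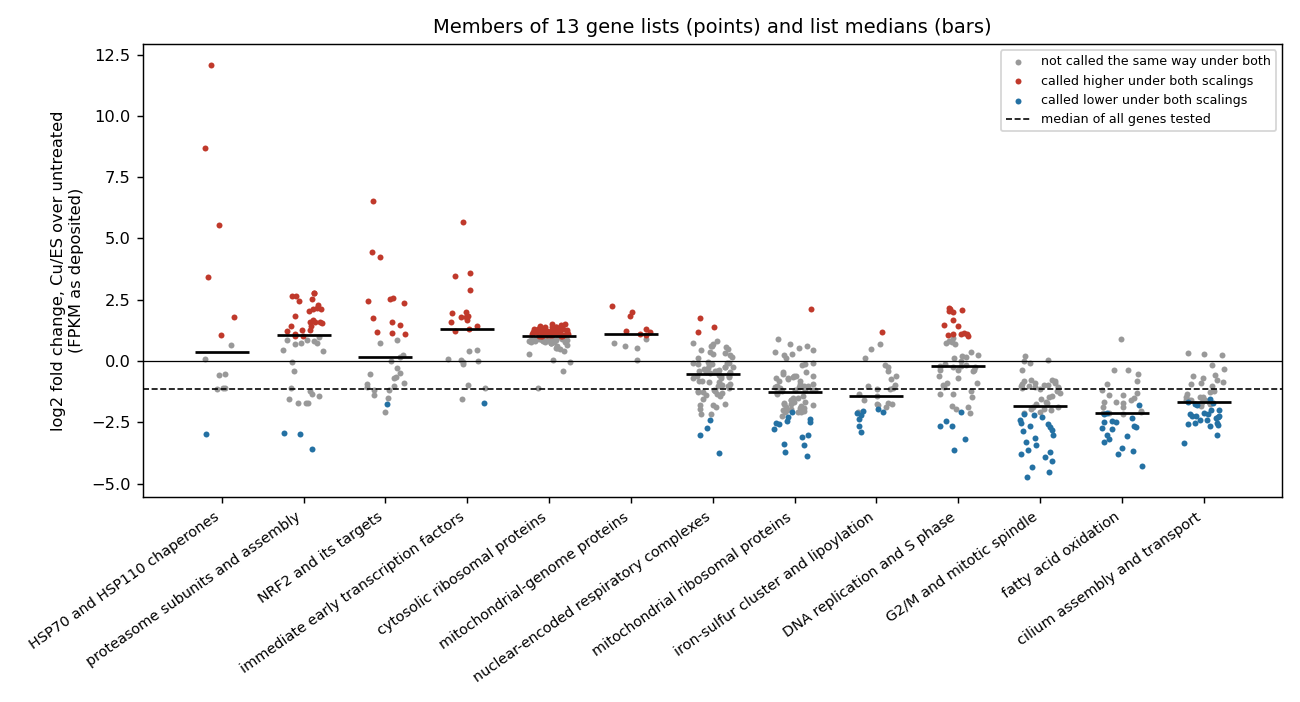
Log2 fold change as deposited (Cu/ES over untreated) of every tested member of 13 gene lists, with 1 point per gene, black bars at list medians and a dashed line at the median of all genes (-1.12). Cytosolic ribosomal protein genes form a tight group around 1.02, whereas chaperone, replication and mitotic genes spread over several log2 units.

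Immediate early genes had the highest median of the lists with at least 10 tested members, 1.29 and 2.58, with 14 of 25 rising and 1 falling. Fosb, a partner in the AP-1 factor, rose from 2.49 ± 0.378 to 41 ± 2.14 FPKM, Ier5, a regulator of heat shock factor 1, from 30.5 ± 0.864 to 351 ± 17.3 FPKM and Junb from 92.1 ± 9.45 to 377 ± 43.8 FPKM, whereas Klf2 fell from 2.34 ± 0.396 to 0.00596 ± 0.0103 FPKM. Klf2 passed the filter through the untreated libraries alone, so that it had to differ. Of 18 MAP kinase feedback genes 5 rose and 3 fell. The phosphatase Dusp1 rose from 18.8 ± 4.47 to 169.7 ± 18.6 FPKM and the inhibitor Spred1 fell from 43.2 ± 1.45 to 5.6 ± 0.283 FPKM. Among readouts of Wnt, Notch and Hippo signalling 6 of 26 rose, and the 3 largest were targets of YAP and TEAD: Ccn2, Ccn1 (21.3 ± 1.91 to 1787 ± 308 FPKM) and Ankrd1 (0.791 ± 0.252 to 27.3 ± 4.03 FPKM). Tead2 itself fell from 23.2 ± 1.72 to 1.93 ± 0.499 FPKM. In the TGF-beta and BMP list 3 of 25 rose and 9 fell, with the inhibitor Smad7 rising (5.42 ± 0.653 to 176 ± 0.595 FPKM) and the coreceptor Tgfbr3 falling (19.4 ± 1.48 to 0.407 ± 0.117 FPKM).

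Genes regulated by p53 went in opposite directions, with 8 of 31 rising and 7 falling, a share of falls near the 24.3% of all genes. Gadd45b rose from 7.77 ± 0.669 to 289 ± 50.8 FPKM and Plk3 from 29.3 ± 5.59 to 182 ± 4.38 FPKM, and Ccng1, the cyclin G1 gene, fell from 77.5 ± 7.18 to 2.94 ± 0.326 FPKM and Ei24 from 28.1 ± 0.485 to 0.28 ± 0.127 FPKM. Cdkn1a, the p21 inhibitor, was at 221, 175 and 234 FPKM in the untreated libraries and 213, 213 and 221 FPKM in the Cu/ES libraries, overlapping (log2 fold change 0.05, adjusted p = 0.659, and 1.40 after scaling). In the list of BCL2 family members and caspases 1 of 31 rose and 9 fell (medians -1.56 and -0.53). Here the share of falls was slightly above that of all genes. The proapoptotic Bax rose from 76 ± 2.82 to 159 ± 6.55 FPKM, just past the limit (0.69 in TPM and 0.90 after quantile normalization), and the caspases Casp6 (22.2 ± 3.71 to 0.231 ± 0.0675 FPKM) and Casp9 (10.7 ± 0.584 to 0.34 ± 0.0945 FPKM) fell.

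Cell cycle genes were counted by phase. Of 56 genes of DNA replication 14 rose and 6 fell (8 and 5 under all 4 scalings), with medians of -0.21 and 1.09. Mcm3 of the replicative helicase rose from 39.8 ± 1.81 to 177 ± 2.89 FPKM, the flap nuclease Fen1 from 9.59 ± 2.13 to 43.9 ± 1.1 FPKM and the single-strand binding protein Rpa2 from 11.5 ± 1.85 to 55.2 ± 3.57 FPKM, while thymidine kinase Tk1 fell from 34.8 ± 3.0 to 1.9 ± 0.387 FPKM. Of 58 genes of G2/M and the spindle 0 rose and 22 fell, with medians of -1.81 and -0.63. The phosphatase Cdc25b fell from 57.7 ± 4.71 to 1.24 ± 0.174 FPKM, the kinase Aurkb from 41.1 ± 3.4 to 0.823 ± 0.235 FPKM and cyclin Ccnb2 from 57.9 ± 3.98 to 2.01 ± 0.441 FPKM. Tpx2, a spindle assembly factor, and Plk4, the kinase of centriole duplication, had log2 fold changes of 0.02 and 0.22 as deposited. Mki67, the proliferation marker, was at 52.6 ± 3.1 FPKM untreated, 41 ± 8.47 with Cu/ES (-0.37 and 0.96) and was called under neither scaling, although after scaling it passed the limit of 1 without Cu/ES replicate 3 (1.08) or untreated replicate 2 (1.0001) and was -0.10 after quantile normalization. Of 16 G1 cyclins and inhibitors 8 fell (5 under all 4 scalings), including cyclin Ccnd1 (78.9 ± 17.8 to 2.51 ± 0.279 FPKM) and Cdkn1b (31.6 ± 2.94 to 1.52 ± 0.464 FPKM), and Cdkn1c rose (3.87 ± 0.203 to 27.4 ± 3.03 FPKM). Of 56 DNA repair genes 2 rose, Brca1 (9.76 ± 1.07 to 52.6 ± 2.84 FPKM) and Apex1 (48 ± 7.1 to 102 ± 9.01 FPKM, 0.72 in TPM and 0.96 without untreated replicate 1), and 13 fell (7 under all 4 scalings). This share of falls under both scalings was near the 24.3% of all genes.

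Among metabolic genes, fatty acid oxidation had the lowest median of the lists with at least 10 tested members, -2.10 and -0.94, although after quantile normalization (-1.03) hypoxia genes were lower (-1.41). None of its 41 tested members rose and 19 fell. Cpt2, which returns fatty acids to coenzyme A inside mitochondria, was at 15, 16.1 and 14 FPKM in the untreated libraries and 0.0806, 0.213 and 0.166 FPKM in the Cu/ES libraries. The dehydrogenase Acads fell from 27 ± 0.488 to 1.24 ± 0.12 FPKM and the peroxisomal reductase Decr2 from 20.9 ± 1.9 to 0.136 ± 0.102 FPKM. Of 23 glycolytic genes 0 rose and 6 fell, a share near the 24.3% of all genes, and 9 were called higher after median-ratio scaling, with the phosphofructokinase Pfkl (77.8 ± 3.5 to 3.65 ± 0.426 FPKM) and lactate exporter Slc16a3 (166 ± 12.7 to 13 ± 3.27 FPKM) falling and the abundant Eno1 at 1549.6 ± 70.6 FPKM untreated, 1784 ± 102 with Cu/ES. Of 28 genes of the hypoxia response 0 rose and 12 fell, with Bnip3 (140.1 ± 22.8 to 6.61 ± 0.551 FPKM) next to Egln3 and Pdk1. Of 39 genes of cholesterol and fatty acid synthesis 1 rose and 7 fell, the lipogenic factor Srebf1 (45 ± 3.79 to 3.48 ± 0.314 FPKM) among them, and malic enzyme Me1 rose (19.98 ± 1.89 to 47.3 ± 0.615 FPKM, but 0.86 in TPM). In this list the share of falls was below that of all genes. The citric acid cycle list held 1 rise (0 under all 4 scalings) and 5 falls of 28, a share of falls below that of all genes, the falls including Pck2 (69.7 ± 3.86 to 3.89 ± 0.316 FPKM) and Fh1 (48.7 ± 2.51 to 4.34 ± 1.02 FPKM).

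Inflammatory and interferon genes included more falls than rises, as did all tested genes (24.3% and 9.87%). Of 28 NF-kB and inflammatory genes 2 rose and 9 fell (medians -1.75 and -0.69), and after median-ratio scaling alone 7 were called higher and 9 lower, beside 26.8% and 24.3% of all genes, with the chemokines Ccl2 (235 ± 85.1 to 37 ± 5.81 FPKM) and Cxcl1 (53.6 ± 6.39 to 3.26 ± 1.08 FPKM) and the inhibitor Nfkbia (62.5 ± 4.74 to 5.48 ± 0.871 FPKM) among the falls and Nfkbib (16.8 ± 1.22 to 61.7 ± 2.75 FPKM) among the rises. Without untreated replicate 2 the log2 fold change of Ccl2 after scaling was -0.96, under the limit of 1. Of 35 interferon response and MHC class I genes 0 rose and 16 fell (medians -1.70 and -0.80), 13 of them under all 4 scalings. Tap1, the peptide transporter, fell from 32.8 ± 3.93 to 0.369 ± 0.198 FPKM, while the light chain B2m was at 1104 ± 129.6 FPKM untreated, 1969.7 ± 256 with Cu/ES, with log2 fold changes of 0.83 and 2.19. Usp18, Irf7, Oasl2 and Dtx3l of this list were among the genes under 0.1 FPKM in every Cu/ES library.

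Genes of cell shape and identity went both ways. Of 18 genes of epithelial and mesenchymal identity 3 rose and 4 fell, and of 45 actin and tubulin genes 4 rose and 5 fell, neither share of falls being above the 24.3% of all genes. Vim was at 1979, 2133 and 2128 FPKM in the untreated libraries and 347, 292 and 350.5 FPKM in the Cu/ES libraries and the regulators Twist1 (27.9 ± 3.39 to 1.77 ± 0.125 FPKM) and Twist2 (23.8 ± 1.18 to 2.51 ± 0.0407 FPKM) fell with it, while the epithelial factor Grhl2 (2.71 ± 0.537 to 16.1 ± 2.01 FPKM) and Snai1 (10.2 ± 0.557 to 32.5 ± 1.23 FPKM), which represses E-cadherin, rose. Of 36 collagens and matrix genes 2 rose and 13 fell, the collagenase Mmp13 (3.94 ± 0.952 to 74.7 ± 2.4 FPKM) rising. The stellate cell and fibroblast markers summed to 140.0 to 207 FPKM per untreated library and 3.53 to 5.78 with Cu/ES, and each of the 3 tested (Col1a1, Col3a1 and Des) fell. Leukocyte markers summed to at most 0.95 FPKM in any library. Beta-actin Actb, a common reference gene, was at 818 ± 110.2 FPKM untreated, 263 ± 20.8 with Cu/ES, with log2 fold changes of -1.63 and -0.27. The tubulins Tuba1b (403 ± 28.9 to 53.9 ± 0.364 FPKM) and Tubb6 (133 ± 9.36 to 11.2 ± 0.279 FPKM) fell. Of 52 cilium genes 0 rose and 24 fell, and of 24 GPI anchor genes 0 rose and 11 fell, but only 11 and 5 of these falls held under all 4 scalings, and after quantile normalization 4 and 2 members were called higher. In the Hedgehog list 0 of 20 rose and 9 fell, Smo among them (15.2 ± 0.622 to 0.707 ± 0.214 FPKM). Of 10 tested liver secreted proteins 4 rose and 2 fell, of 11 hepatocyte transcription factors 1 rose and 2 fell, and of 19 drug-metabolising enzymes 2 rose and 5 fell. Among drug-metabolising enzymes both shares were near those of all genes. Afp, the fetal relative of albumin, rose from 2.56 ± 0.749 to 19.2 ± 0.20 FPKM. Asgr1 (0.0789 ± 0.0617 to 3.84 ± 0.343 FPKM) and the endothelial marker Pecam1 (0.214 ± 0.0633 to 6.85 ± 2.35 FPKM) passed the filter through the Cu/ES libraries alone, so that they had to differ.

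Classes of genes also differed. Long noncoding RNA genes by RefSeq had a median log2 fold change of 0.09 as deposited (n = 419), and 33.2% of them rose and 11.7% fell, against a median of -1.16 with 8.77% and 24.9% for 10043 protein-coding genes. The quintile of genes with the highest mean level (27.4 FPKM and more) had a median of -0.11 with 21.3% rising, and the middle quintile -1.51 with 4.99% rising. This level includes the Cu/ES libraries, so a gene's own change moves it between quintiles and the difference is partly built in. Of the shortest quintile of genes (up to 1788 bases of exon, as implied by the FPKM values) 18.3% rose, and of the longest quintile 5.18%. Zinc finger genes with Zfp symbols had medians of -1.19 and -0.25, with 65 falls and 11 rises among 245, but after quantile normalization the balance reversed (52 called higher and 26 lower, median 0.13). These are properties of genes that overlap one another, since ribosomal protein genes are both short and abundant, and were not tested separately.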

How the data were processed

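The authors deposited FPKM values per gene and library. The submitters' processing notes name fastp, HISAT2, HTSeq and the build GRCm39, and the study's own tests used DESeq2. Groups came from the sample labels. From the deposited FPKM, log2(FPKM + 1) was computed for genes with a mean of at least 1 over the 6 libraries, and all 12 libraries (4 groups of 3) were fitted with limma 3.58.1 in R 4.3.3, with a mean-variance trend and 8 residual degrees of freedom. The contrast was Cu/ES minus untreated, two-sided, with Benjamini-Hochberg adjustment. The fit was repeated after median-ratio scaling. FPKM keep no absolute amount of RNA per cell, so both scalings are relative. Read numbers and library totals were counted back from the steps between FPKM values (whole within 0.02 reads for all 22212 genes above 0 in at least 2 libraries).

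The members and 63 gene lists were chosen with earlier results of these data known. Named genes are the 10 that rose most and the 10 that fell most of those called the same way under both scalings, with a mean of at least 5 FPKM and no overlap, the 3 largest rises, 3 largest falls and 2 most abundant members of each list, and 31 genes of copper handling, stress and identity. Some of these genes are not reported here. The fit was first tested on simulated data. Libraries of the same replicate number deviated together between both groups (correlations across genes 0.166, 0.172 and 0.146, against -0.125 to 0.004 for other pairs), so the numbers in the labels were taken to pair the samples, and a block on them was fitted as an alternative. Other alternatives were a pseudocount of 0.1, no filter, a minimum of 5 FPKM, TPM, quantile normalization, no trend, only the 6 libraries, limma-voom on recovered reads and each library left out. Tables and plots were made with Python 3.11.15, pandas 2.3.3, numpy 2.4.6 and matplotlib 3.10.9.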

Additional observations from a re-analysis of the deposited data

How the results depend on the processing

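Counts of changed genes stayed within 1.5 times under a pseudocount of 0.1, no filter, no trend, only the 6 libraries and limma-voom on recovered reads (1170 higher and 6153 lower as deposited with the last). After median-ratio scaling the balance turned, from 2851 higher and 2583 lower to 3078 and 3273 at the smaller pseudocount, 3100 and 3317 by voom and 2156 and 2309 after quantile normalization. With a mean of at least 5 FPKM, fewer genes were tested, and 3387 were called lower as deposited and 1827 higher after scaling. Without each library in turn, counts were 1046 to 1053 higher and 5678 to 5711 lower as deposited, and 2834 to 2865 higher and 2571 to 2602 lower after scaling. The paired fit, with the replicate number as a block, gave 1049 and 5696 as deposited and 2851 and 2583 after scaling, and changed no call of a gene named here. Signs turned mainly for named genes with small differences or high abundance, and the cause was not tested. As deposited, TPM gave -0.18 for Atp7a, -0.32 for Cdkn1a, -0.17 for Eno1, -0.32 for ND5, -0.10 for Nqo1, -0.13 for Plk4, -0.35 for Slc31a1, -0.37 for Srxn1 and -0.35 for Tpx2 (log2 fold changes). After scaling, quantile normalization gave -0.99 for Atf4, -0.14 for B2m, -0.40 for Cdkn1a, -0.15 for Dlat, -0.90 for Eno1, -0.45 for Hsp90ab1, -0.0061 for Hspa5, -1.43 for Krt8, -0.10 for Mki67, -1.57 for Mt2, -0.85 for ND5, -0.34 for Rps27l and -0.11 for Spp1. The minimum of 5 FPKM gave -0.17 for Dlat and -0.12 for Rps27l. With 1 library left out, values as deposited ran from -0.076 to 0.13 for Cdkn1a, -0.0038 to 0.14 for ND5, -0.036 to 0.054 for Slc31a1 and -0.045 to 0.079 for Srxn1. Of the remaining values of named genes, 19 as deposited and 29 after scaling crossed the limits of a call without a change of sign, and 2362 and 2354 did not. Depth limits single genes only at low levels, since 3 reads are 0.0375 FPKM for Alb, and intervals were not computed because reads without molecular identifiers are not independent molecules.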
